A study of Mus musculus with 2 samples.

Results

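The genes of MHC class II antigen presentation were followed across 2 Visium lung sections: the chains H2-Aa, H2-Ab1 and H2-Eb1, the invariant chain Cd74, the peptide-loading subunits H2-DMa and H2-DMb1, and the transactivator Ciita. These 7 genes were taken by symbol from the 32285 features of the deposited count tables, and all 7 had counts in both sections. The control section came from a lung with no treatment. The metastatic section came from the lung of a female Balb/c mouse, inoculated at 6 to 8 weeks of age with 4T1 cells, a mouse mammary tumour line, into a mammary fat pad and killed after 21 to 23 days. The strain and age of the control mouse are not given apart from this. There was 1 section per condition, so section, animal and library cannot be told apart, no test was made, and intervals in brackets are 95% intervals that cover counting error only.

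MHC class II molecules carry peptides of ingested or engulfed protein to the cell surface, where CD4+ T cells read them. An alpha and a beta chain pair in the endoplasmic reticulum around the invariant chain (Cd74), H2-DM exchanges the remnant of that chain for peptide in late endosomes, and Ciita switches on the whole group of genes. B cells, dendritic cells and macrophages are the classical carriers, and in mouse lung the alveolar type II (AT2) cells, which make surfactant, also express class II without being immune cells. Interferon-gamma induces Ciita and with it class II in many other cells. The comparisons below therefore asked where the class II genes were high relative to tumour and lymphoid spots, and whether their level followed B cell, macrophage or AT2 content.

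Ciita acts without binding DNA itself. It docks on a module of promoter boxes shared by class II genes, of which the Y box, an inverted CCAAT motif, is bound by NF-Y. The stretches of 150 bases before the start of 3 of the genes are shown because they hold TGATTGG. They are from RefSeq (GRCm38.p6), on chromosome 17, with TGATTGG in capitals: H2-Aa at chr17:34287824-34287973 (minus strand), H2-Eb1 at chr17:34305717-34305866 (plus strand) and H2-DMb1 at chr17:34153041-34153190 (plus strand).
H2-Aa: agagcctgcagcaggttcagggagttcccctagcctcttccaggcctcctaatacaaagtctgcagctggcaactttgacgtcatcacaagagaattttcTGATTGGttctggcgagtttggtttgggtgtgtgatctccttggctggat
H2-Eb1: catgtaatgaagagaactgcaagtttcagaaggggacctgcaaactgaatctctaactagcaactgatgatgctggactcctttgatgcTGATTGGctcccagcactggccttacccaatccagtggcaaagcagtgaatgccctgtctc
H2-DMb1: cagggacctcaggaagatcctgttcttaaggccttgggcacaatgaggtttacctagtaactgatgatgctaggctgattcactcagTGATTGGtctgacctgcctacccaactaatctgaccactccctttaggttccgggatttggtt
The motif lay 50, 61 and 63 bases before the start in H2-Aa, H2-Eb1 and H2-DMb1. It was searched on both strands in the 250 bases before each start, where 7.23% of 32851 promoters held it, and 3.64% held it on the gene's own strand. The 2 promoter entries of H2-DMa, chr17:34122682-34122831 and chr17:34125368-34125517, did not hold these letters. Both lie inside the annotated span of the gene, 34119693 to 34139101. They therefore cannot show whether the stretch before another start of H2-DMa holds the motif. No promoter entry was matched for H2-Ab1 and Ciita, and none is printed for Cd74. A match is a description of the letters in this window.

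The control section held 1888 spots with 20329126 counts of unique molecules and the metastatic section 1110 spots with 14657881. The median spot had 9644 and 11334 counts, with ranges of 237 to 83152 and 162 to 77512. The 7 genes took up 0.278% of counts in the control section and 0.368% in the metastatic section. Spot barcodes are array positions, and 858 of them were in use in both sections. The control section also held spots with cardiac muscle transcripts, a summed cardiac list of 31.3 counts per 10000 against 0.443. The lung label fitted the markers, since Sftpc (242 and 129 counts per 10000), Ager and Scgb1a1 were high in both. A spot covers a small region with several cells, so fewer cells of a type and less RNA per cell cannot be told apart.

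The metastatic section was divided by distance. Its core was the cluster of 146 spots with the highest relative level of a tumour gene list, found without the class II pathway genes. A relative level is the mean over the genes of a list of each gene's level divided by its mean over all spots, so 1 is the average spot. Against far spots, the core was higher in the proliferation genes Mki67 (14.5-fold), Top2a (21.8-fold) and Birc5 (13.9-fold) and in the keratin Krt18 (2.04-fold). The epithelial genes Epcam and Krt19 were at 0.315 and 0.144 of the far level, and no spot of the section passed the highest control spot for the tumour list. These values chose or describe the core and test nothing. The core formed a part of 111 spots, called the larger metastasis, a part of 30, called the smaller one, and 5 lone spots. The 108 spots within 200 µm of the core are called the margin, the 199 between 200 and 500 µm the intermediate zone, and the 657 beyond 500 µm the far lung.

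Class II genes were higher at and in the metastases than in the far lung. Their summed level was 27.2 counts per 10000 (26.9 to 27.6) in the far lung, 31.0 (30.3 to 31.7) in the intermediate zone, 60.0 (58.8 to 61.3) in the margin and 62.7 (61.7 to 63.7) in the core. The margin was 2.21-fold (2.15 to 2.26) and the core 2.30-fold (2.26 to 2.35) above the far lung. The control section lay at 27.8 (27.5 to 28.0), so the far lung stood at 0.980 of it (0.965 to 0.995). Single spots overlapped widely: far spots ran from 0 to 188 with a median of 24.2, margin spots from 6.58 to 161 with a median of 61.0, and core spots from 9.78 to 228 with a median of 72.6.

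**Figure D1:**
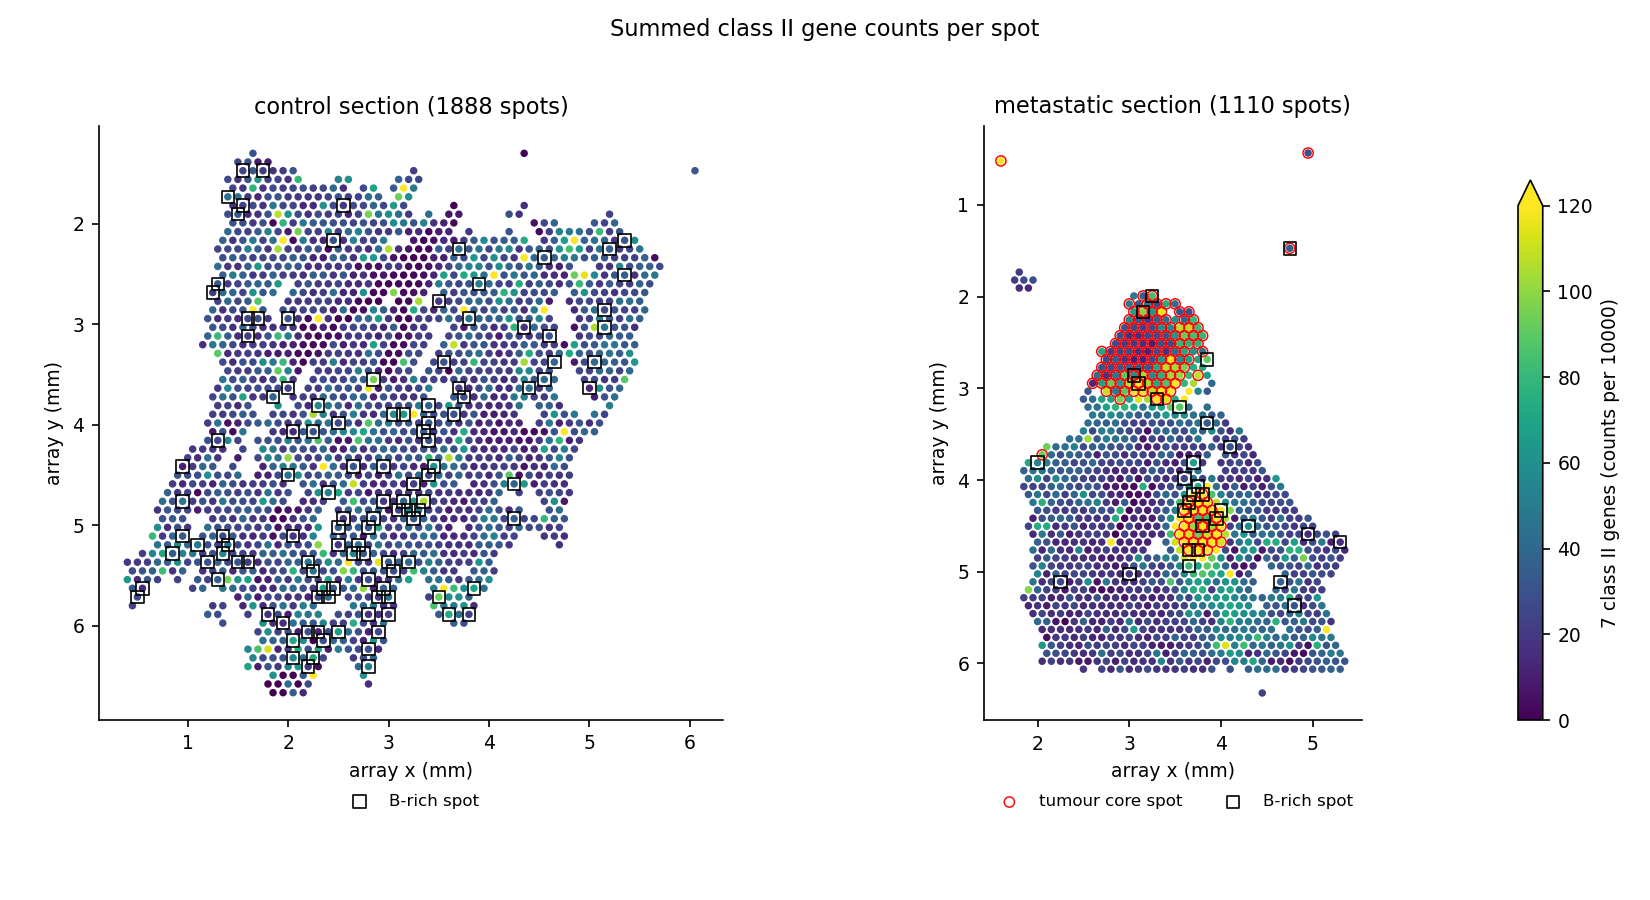
Summed counts of the 7 class II genes per 10000 counts in each spot (colour, capped at 120) on the array (x and y in mm) for the control section (left) and the metastatic section (right). Red circles mark the tumour core and black squares the B-rich spots; the smaller metastasis is high throughout, while the larger one is high along its lower and right sides and low in its interior.

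All 7 genes had an interval above 1 for the margin over the far lung. By the rule of at least 2-fold, 6 of the 7 were called, against a background of 6.75% of the 11086 genes that had 50 or more counts over both groups of spots, and H2-DMa missed it at 1.98-fold. The median log2 ratio was 1.12 over the 7 genes and 0.27 over all genes tested. With a library size that left out 455 abundant genes such as Scgb1a1, haemoglobin and surfactant genes, the margin ratio was 1.83 and 2 of the 7 reached 2-fold, against 3.55% of all genes tested. In the core 6 of the 7 were again at least 2-fold higher, where the background was 22.9% of 11444 genes. There the ratio was 1.59 on the reduced library size, with 1 of the 7 at 2-fold against 10.5% of all genes tested.

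The alpha and beta chains had like ratios. H2-Aa, the alpha chain of I-A, was at 5.93 counts per 10000 in the control section, 6.68 in the far lung, 14.0 in the margin and 14.0 in the core. H2-Ab1, its beta partner, was at 5.51, 6.32, 13.7 and 14.0. The margin ratio was 2.09 (1.99 to 2.20) for H2-Aa and 2.17 (2.06 to 2.29) for H2-Ab1. H2-Eb1, the beta chain of I-E, had few counts, 250 in the control section and 290 in the metastatic one, which gave 0.123, 0.119, 0.339 and 0.421 in the same order. Its core ratio of 3.55 (2.66 to 4.74) was the highest of the 7, with an interval that overlapped only that of Ciita. Balb/c mice carry another MHC haplotype than the C57BL/6 reference, and what this did to the counts of each chain was not tested.

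Cd74, the invariant chain that fills the groove until peptide is loaded, was at 14.9 counts per 10000 in the control section, 12.7 in the far lung, 29.2 in the margin and 31.4 in the core. Like the other genes it was higher at the metastases, with ratios over the far lung of 2.29 (2.21 to 2.37) in the margin and 2.47 (2.39 to 2.54) in the core.

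The subunits of the peptide exchange factor H2-DM had fewer counts and were likewise higher in margin and core. H2-DMa was at 0.510 counts per 10000 in the control section, 0.562 in the far lung, 1.11 in the margin and 1.08 in the core. H2-DMb1 was at 0.692, 0.660, 1.38 and 1.44. H2-DMb1 and its neighbour H2-DMb2 are near copies, so how reads were split between them is uncertain. Ciita, the transactivator, had 248 and 281 counts in the control and metastatic sections. It was at 0.122 in the control section, 0.138 in the far lung, 0.333 in the margin and 0.331 in the core, a margin ratio of 2.41 (1.69 to 3.40). Per 1000 counts of the 7 genes, Ciita contributed 4.39 (3.86 to 4.98) in the control section, 5.07 (4.18 to 6.08) in the far lung, 5.54 (4.10 to 7.32) in the margin and 5.28 (4.17 to 6.60) in the core. These intervals overlapped, so a change in the share of Ciita was not detectable at this depth.

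**Figure D2:**
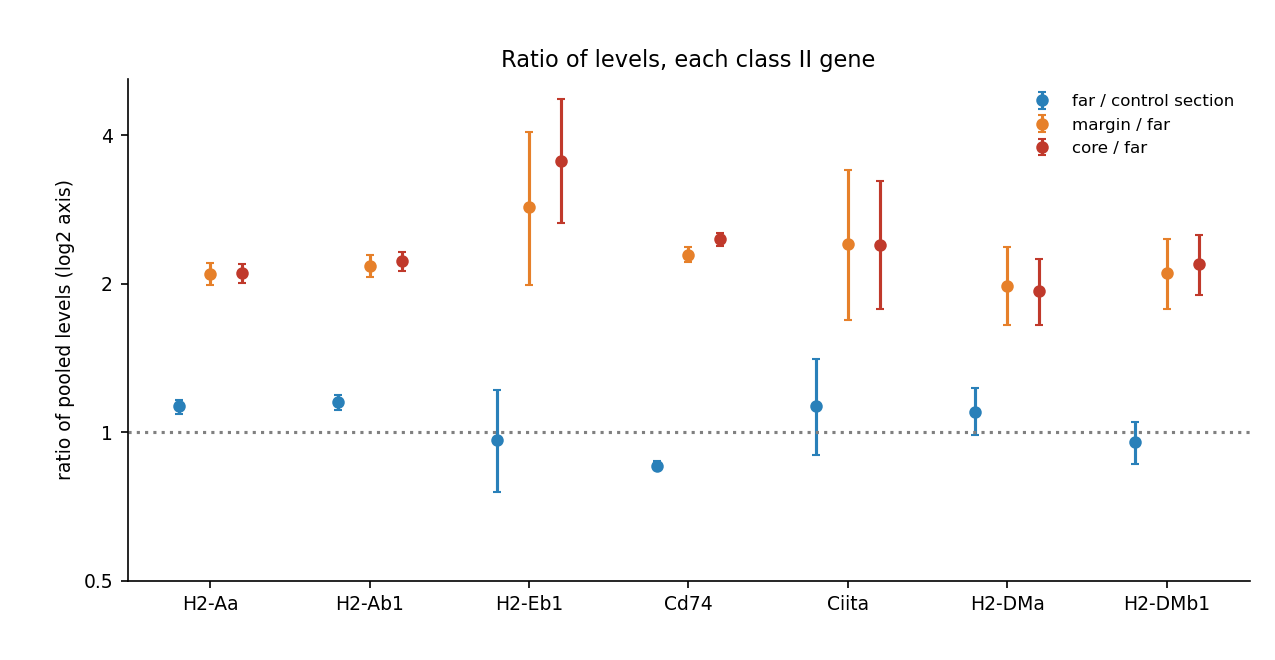
Ratio of pooled levels (y axis, log2 scale) for each class II gene (x axis): far lung over the control section (blue), margin over far lung (orange) and core over far lung (red), with 95% intervals that cover counting error only. Margin and core ratios lie between 1.93 and 3.55 for all 7 genes, while far over control ratios lie between 0.855 and 1.15.

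Between the far lung and the control section the genes lay on both sides of 1. H2-Aa was 1.13-fold (1.09 to 1.16) and H2-Ab1 1.15-fold (1.11 to 1.19) the control level, and Cd74 was 0.855-fold (0.837 to 0.875). The intervals of H2-Eb1, H2-DMa, H2-DMb1 and Ciita covered 1. None of the 7 passed 2-fold in either direction, where 0.830% of 13375 genes were higher and 3.93% lower. The median ratio over all genes tested was 0.878, near that of Cd74 and below those of the I-A chains. The median log2 ratio was 0.14 over the 7 genes and -0.19 over all genes tested. The summed level, near 1, thus combined I-A chains above the control level with an invariant chain below it. Without Cd74 the ratio was 1.12, and with the reduced library size it was 1.08.

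The balance of Cd74 to the chains does not depend on library size, but the part of MHC haplotype in the chain counts was not tested. The control section held 1.3 counts of Cd74 (1.28 to 1.32) per count of H2-Aa and H2-Ab1 together, the far lung 0.979 (0.953 to 1.01) and the intermediate zone 0.885 (0.845 to 0.926). It was higher again in the margin, at 1.05 (1.01 to 1.1), and in the core, at 1.12 (1.08 to 1.16). Along the edge of the smaller metastasis it reached 1.35 (1.23 to 1.47), near the control value.

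The smaller metastasis carried the highest class II level of the section. Its 18 edge spots pooled to 163 counts per 10000 (156 to 170.3), with single spots from 112 to 228 and a median of 154. Of the 657 far spots 3 reached the lowest of these edge spots, as did 19 of the 1888 control spots. These spots were singled out after their class II level was seen, so their values are a description. All 7 genes were at least 2-fold above the far lung there, beside 31.8% of 10674 genes. The level was 6.00-fold (5.74 to 6.27) above the far lung for the sum, 7.03-fold for Cd74, 5.03-fold for H2-Aa, 5.21-fold for H2-Ab1 and 3.25-fold (2.06 to 4.90) for H2-DMa. Edge spots were shallower than far spots, with a median of 6137 counts against 10788, and in the 10 of them with at least 5000 counts, thinned to that depth like the far spots, the ratio was 5.10.

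Outward from the smaller metastasis the level was 74.4 at 100 µm, 41.5 at 200 µm, 40.4 at 300 µm, 30.4 at 400 µm and 22.8 at 500 µm. Inward it was 124 (112 to 137) in the 10 spots 200 µm deep, on 383 class II counts. The larger metastasis was lower and hollow. Its 48 spots at a depth of 300 µm or more pooled to 33.3 (32.1 to 34.5) on 3096 class II counts, 1.22-fold the far lung. The level was 66.2 in the spots 200 µm deep and 78.2 (75.9 to 80.5) at the edge. Outside it the level was 68.7 at 100 µm and 71.0 at 200 µm and was 37.3 at 300 µm. Edge spots were core spots with a tissue spot outside the core at 100 µm, and all other core spots counted as inner. Lone spots and spots at the tissue border could thus count as inner. Over the whole core, the 49 edge spots stood at 94.8 and the 97 inner spots at 48.2, a ratio of 1.97 (1.90 to 2.03). At this split 3 of the 7 genes, H2-Eb1, Cd74 and Ciita, reached 2-fold, beside 4.27% of 6841 genes. This split too was chosen after the levels were seen.

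**Figure D3:**
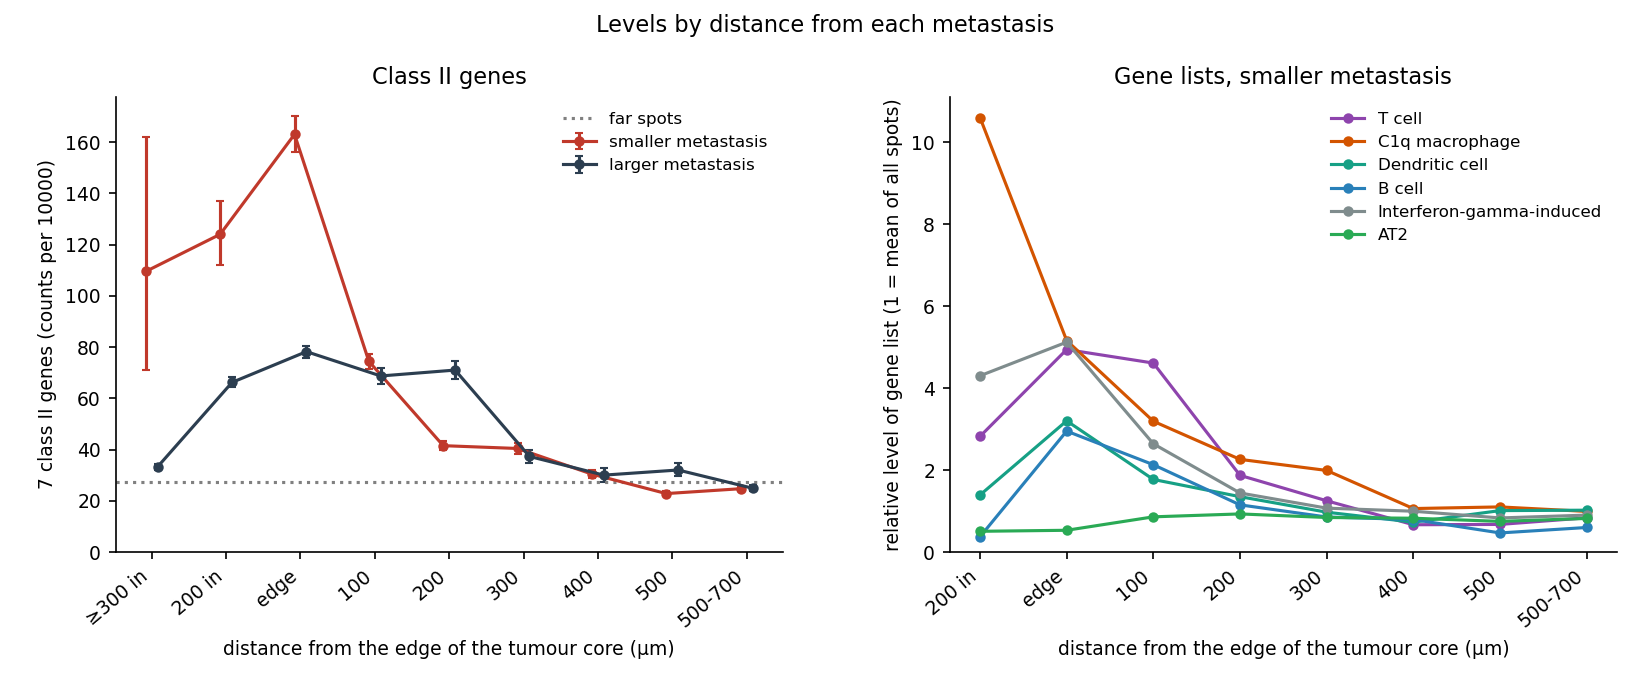
Left, pooled level of the 7 class II genes (counts per 10000, 95% counting intervals) by distance from the edge of each metastasis in µm, with the far lung as a dotted line. Right, relative level of 6 gene lists around the smaller metastasis, without its 2 deepest spots (25 class II counts in all, and a B cell list at 7.44); among the rings plotted, T cell, dendritic cell, B cell and interferon-gamma-induced lists are highest at the edge, the C1q macrophage list is highest inside it and AT2 is below 1 throughout.

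These values depend on where the core is drawn. With 8 clusters in place of 5, the core shrank to 113 spots and its rim counted as margin, so that the margin ratio was 2.97 and the core ratio 1.85. All 7 genes then reached 2-fold in the margin, against 12.5% of all genes tested, and 1 in the core, against 22.4%. Each metastasis alone gave margin ratios of 2.56 for the larger and 2.06 for the smaller, and core ratios of 2.02 and 5.70.

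Markers of several cell types were high where class II was high. At the edge of the smaller metastasis the relative level was 4.94 for T cells, 5.16 for C1q macrophages, 3.20 for dendritic cells, 2.95 for B cells and 5.12 for interferon-gamma-induced genes, against 0.824, 0.951, 0.849, 0.603 and 0.943 in the far lung. The B cell antigen receptor gene Cd79a was 7.68-fold above the far lung there, on 18 counts, and the T cell attractant Cxcl9 18.2-fold on 58 counts. The tumour list was at 3.04 there against 0.658 in the far lung. Of its genes Krt8 and Krt19 were at 0.827 and 0.610 of the far level. The others were higher, among them Mki67 (26.4-fold on 27 counts), Krt18 (2.60-fold) and Epcam (1.54-fold). In the 2 deepest spots the tumour list was at 0.345. Whether the smaller metastasis is tumour throughout was not tested. The AT2 list was at 0.530 at the edge of the smaller metastasis against 0.881 in the far lung, while in the margin as a whole it was at 0.974. In the whole core Sftpc was at 38.1 counts per 10000, against 149 in the far lung, while the class II genes were 2.30-fold higher. The part of each cell type in the class II level was not tested.

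Across the 254 core and margin spots, the class II level ranked most like the T cell list, with a Spearman rho of 0.53 for single spots and 0.76 for sums over a spot and its neighbours. The corresponding values were 0.42 and 0.59 for C1q macrophages, 0.49 and 0.48 for interferon-gamma-induced genes, 0.30 and 0.67 for B cells, 0.24 and 0.60 for dendritic cells, 0.32 and 0.52 for AT2 and 0.07 and 0.02 for the tumour list. Fibroblast genes ran the other way, at -0.39 and -0.56, as did total counts, at -0.43. These points share 1 library, neighbouring spots are not independent, and no test was made.

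Lymphoid spots were taken as those at or above the 95th percentile of all spots for a B cell list (9 genes with enough counts, among them Cd79a and Ms4a1) and are called B-rich. In the control section there were 119, spread thinly, with a median of 4 list counts and no touching group of more than 6 spots, so no large follicle was seen. Their class II level was 35.6 counts per 10000 against 27.4 in the other 1769 spots, a ratio of 1.3 (1.25 to 1.35). None of the 7 genes was called at 2-fold there, where 5.14% of 12863 genes were. The median log2 ratio of the class II genes, 0.25, was below that of all genes tested, 0.36, and on the reduced library size the ratio was 1.03 (0.993 to 1.07). B-rich spots also held less airway transcript, a relative level of 0.447 against 1.18. Class II was 32.5 at 100 µm from B-rich spots, 29.5 at 200 µm, 28.9 at 300 µm and 22 beyond.

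In the far lung of the metastatic section only 8 spots were B-rich, and their class II level of 26.5 (22.4 to 31.2) did not differ detectably from 27.2 in the others, at a ratio of 0.975 (0.822 to 1.15). With B-rich spots taken at the 90th percentile there were 31, and the ratio was 1.15 (1.07 to 1.23). At the 95th, 2 of the 7 genes passed 2-fold only through the 0.5 added to each count, H2-Eb1 at 1.55 on 1 count and H2-DMa at 1.97 on 6, beside 25.1% of 10603 genes, so that count gives no result. Next to tumour, 20 of the 254 core and margin spots were B-rich, at 119 counts per 10000 (114 to 124) against 58.8 (58.0 to 59.6) in the other 234. The relative level of the T cell list was 5.25 in these B-rich spots against 1.97 in the others, and that of the dendritic cell list 3.39 against 1.40, while the C1q macrophage list was at 3.16 against 3.61. The part of each in the class II level was not tested.

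B-rich spots were among the highest class II spots only where core and margin spots were included. Among the 20 highest control spots, all at 109 counts per 10000 or above, none was B-rich, where 6.30% of control spots were, and 12 lay in the top 10% for a dendritic cell list, whose relative level in them was 4.70 against 0.995 in the whole section. Among the 20 highest far spots none was B-rich, where 1.22% of far spots were, and 7 were in the top 10% for dendritic cells. Of the 20 highest in the whole metastatic section, 15 were core spots, 12 of them on the edge of the smaller metastasis, and 4 were margin spots. Among these 20 highest spots 6 were B-rich, or 30% against 2.79% of all spots of the section. Of the 254 core and margin spots 20 were B-rich. The 20 highest held 10 spots in the top 10% for T cells, 9 for C1q macrophages, 9 for dendritic cells, 7 for macrophages, 6 for B cells and 0 for AT2.

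To set cell types side by side, spots were taken that were in the top 10% for 1 list alone. The dendritic cell list held 7 genes such as Flt3 and Xcr1, the macrophage list 13 such as C1qa and Mrc1, and the AT2 list 12 such as Sftpc and Abca3. Dendritic cell spots had the highest pooled class II level, 50.9 counts per 10000 (49.6 to 52.3) in the control section and 46.4 (44.4 to 48.4) in the far lung. Macrophage spots came next, at 40.5 in both. AT2 spots were at 32.9 (31.7 to 34) and 29.4 (27.8 to 31.1), B cell spots at 31.6 and 28.3 and T cell spots at 30.5 and 31.3, and the intervals of AT2 and B cell spots overlapped in both sections, as did those of B cell and T cell spots. Spots in no top 10% were at 28.1 and 27.4. Airway spots were far lower, at 7.56 (7.29 to 7.85) and 11.3 (10.8 to 11.7), and there Scgb1a1 takes a large share of the counts. By the median spot the order was not the same as for pooled levels. In the control section dendritic cell spots were at 40.6, and macrophage spots, at 31.5, lay near AT2 (31.3) and B cell spots (30.8). In the far lung macrophage spots were at 40.1, above dendritic cell spots at 38.5, with AT2 spots at 23.7 and B cell spots at 23.6.

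**Figure D4:**
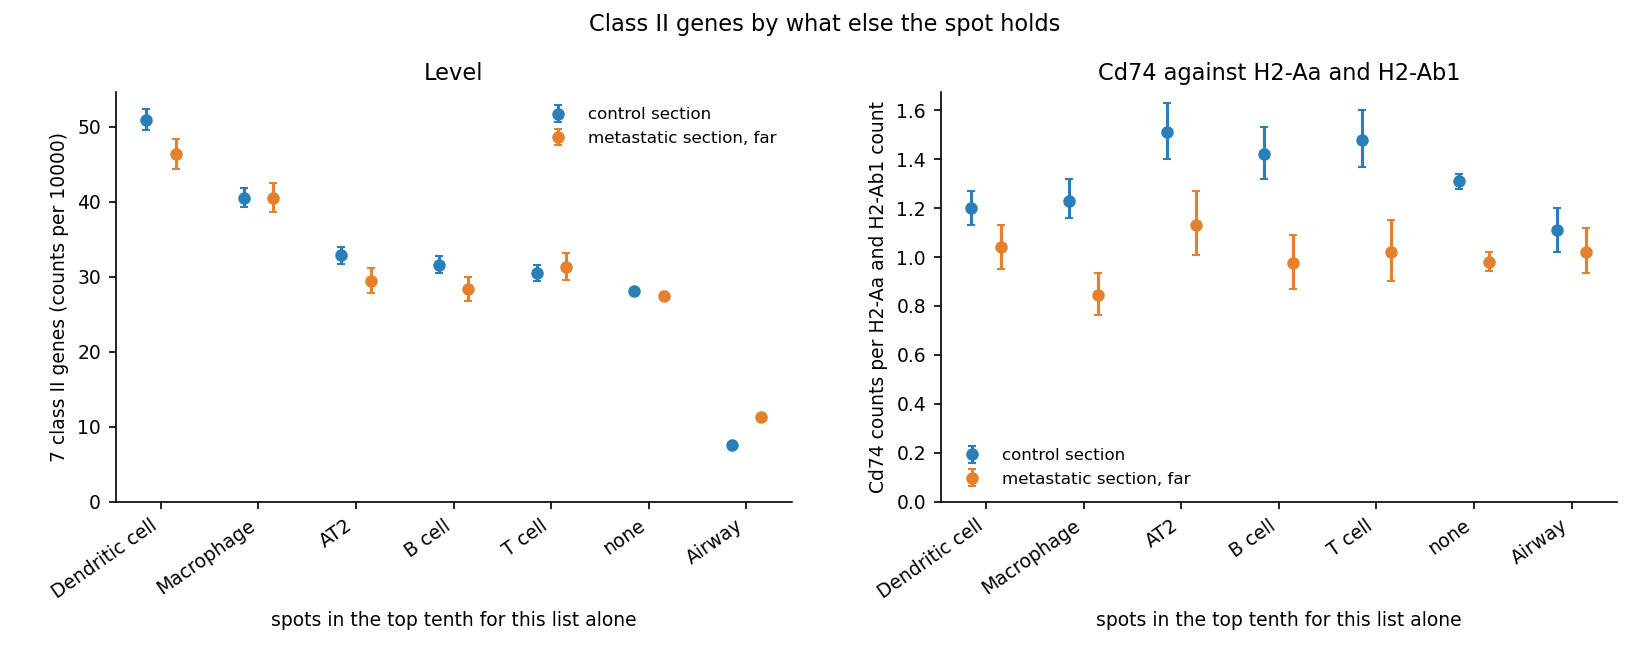
Spots in the top 10% for 1 gene list alone (x axis) in the control section (blue) and the far lung of the metastatic section (orange), with 95% counting intervals. Left, pooled level of the 7 class II genes in counts per 10000, highest in dendritic cell spots and lowest in airway spots; right, Cd74 counts per count of H2-Aa and H2-Ab1, highest in AT2 spots at 1.51 and 1.13 and higher in the control section in every class.

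The balance of Cd74 to the chains also differed by class. It was 1.51 (1.40 to 1.63) in AT2 spots of the control section, 1.48 (1.37 to 1.60) in T cell and 1.42 (1.32 to 1.53) in B cell spots, with overlapping intervals, against 1.23 (1.16 to 1.32) in macrophage and 1.20 (1.13 to 1.27) in dendritic cell spots. In the far lung it was 1.13 (1.01 to 1.27) in AT2, 1.02 (0.902 to 1.15) in T cell, 0.974 (0.868 to 1.09) in B cell, 0.845 (0.764 to 0.934) in macrophage and 1.04 (0.951 to 1.13) in dendritic cell spots. In each of the 7 classes the far lung value was the lower one, though in airway spots the intervals overlapped. The classes of a section share 1 library, so they do not repeat this difference independently.

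Content splits asked the same question within spots low for some of the other immune lists. Where B cell, macrophage and dendritic cell lists were at or below their median and airway-rich spots were left out, the upper AT2 tertile of the control section had a class II level of 30.9 against 18.0 in the lower tertile, 67 spots each, a ratio of 1.72 (1.59 to 1.87). In the far lung it was 26.6 against 18.1, 32 spots each, a ratio of 1.47 (1.3 to 1.66). Cd74 was at 1.91 (1.71 to 2.14) and 1.74 (1.45 to 2.10) and H2-Aa at 1.35 (1.13 to 1.61) and 1.31 (1.02 to 1.68). Most genes differed by this split, however. The median log2 ratio over all genes tested was 0.87 in the control section and 0.35 in the far lung, beside 0.85 and 0.39 for the class II genes with enough counts. At 2-fold, 1 of 4 class II genes with enough counts was called in the control section, H2-DMb1 at 2.01 (1.12 to 3.64), against 40.3% of 3077 genes, and 0 of 3 in the far lung, against 4.13% of 1235 genes.

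The spots low in AT2 content held more airway transcript, a relative level of 0.873 against 0.376 in the control section, and more cardiac transcript, 5.02 against 0.272. Other lists were higher in the spots high in AT2 content, by 2.53-fold in the control section and 2.32-fold in the far lung for T cells, 2.44 and 1.25 for alveolar macrophages, 1.94 and 1.89 for neutrophils and 2.06 and 1.23 for alveolar type I cells, and their part was not tested. On the reduced library size the AT2 ratio was 1.12 (1.03 to 1.22) in the control section and 1.03 (0.911 to 1.16) in the far lung. With T cell and neutrophil lists held low as well, it was 2.40 in the control section and 0.898 (0.708 to 1.14) in the far lung, on 10 spots a side. Against the median gene, at 1.83 in the control section and 1.27 in the far lung, only Cd74 in the far lung had an interval that lay wholly above, and H2-Aa in the control section had one that lay wholly below.

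Class II levels lay further beyond the median gene for macrophage content. Where B cell and dendritic cell lists were low, the upper macrophage tertile had 1.36-fold (1.29 to 1.44) the class II level of the lower one in the control section and 1.61-fold (1.47 to 1.76) in the far lung. In the far lung the interferon-gamma-induced list was 2.02-fold and the fibroblast list 1.82-fold higher in the upper tertile, against 0.854 and 1.36 in the control section, and their part was not tested. The median log2 ratio was 0.52 for the class II genes with enough counts against 0.11 for all genes tested in the control section, and 0.62 against 0.25 in the far lung. None of the 5 class II genes with enough counts in the control section, nor of the 4 in the far lung, reached 2-fold. Of all genes tested, 0.732% of 6008 and 2.15% of 2692 did. On the reduced library size the ratios were 1.17 and 1.32.

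The C1q macrophage list, for complement-producing tissue macrophages, gave 1.22 (1.16 to 1.29) in the control section, where 0.919% of 5766 genes and 0 of 5 class II genes reached 2-fold, and 1.79 (1.65 to 1.96) in the far lung, where the interferon-gamma-induced list was 1.55-fold and the fibroblast list 1.58-fold higher. There 1 of 5 class II genes, H2-DMa, reached 2-fold at 2.63 (1.37 to 5.39), against 2.56% of 2817 genes. The alveolar macrophage list, for the macrophages of the airspace, gave 1.15 in both, and on the reduced library size 0.977 in the far lung. None of the 5 and 4 class II genes with enough counts reached 2-fold, beside 0.450% of 5780 and 0.760% of 2500 genes. The dendritic cell list gave 1.20 (1.14 to 1.26) and 1.28 (1.19 to 1.37). In each, 0 of 5 class II genes with enough counts reached 2-fold, beside 0.298% of 7048 and 0.374% of 4015 genes. By the median spot the dendritic cell ratio was 0.951 in the control section. These last splits were added after the data were seen.

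**Figure D5:**
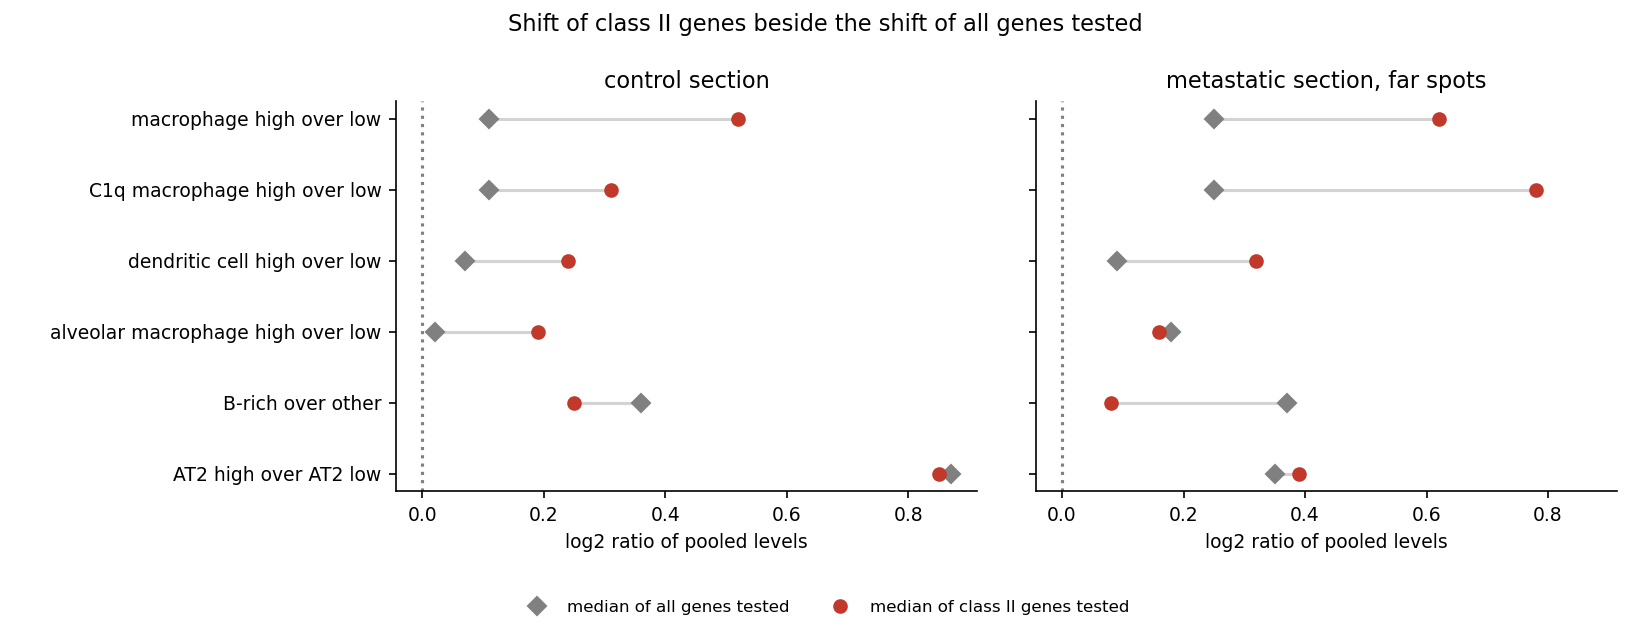
Median log2 ratio of pooled levels (x axis) between spots high and low for each cell type list (y axis) in the control section (left) and the far lung (right), for the class II genes with at least 50 counts (red circles) and for all genes tested (grey diamonds). Class II genes lie beyond the median gene for macrophage, C1q macrophage and dendritic cell content in both sections, and beside or below it for AT2 and B cell content.

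Over single spots the rank correlation with the class II level put macrophages first in the far lung but not in the control section. Among the 657 far spots rho was 0.52 for C1q macrophages, 0.46 for all macrophages, 0.44 for interferon-gamma-induced genes, 0.30 for dendritic cells, 0.18 for AT2 and 0.16 for B cells. Among the 1888 control spots it was 0.35 for AT2, 0.36 for fibroblasts, 0.29 for macrophages, 0.28 for dendritic cells and 0.16 for B cells, and -0.33 for airway. Each set shares a library, and a level per 10000 counts falls wherever an abundant gene takes up counts.

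The genes most like the summed class II level over spots were searched among 4414 genes with at least 500 counts in each section. Cst3, a secreted cysteine protease inhibitor abundant in dendritic cells and macrophages, led both, with a Pearson r of 0.66 over the control spots and 0.70 over the 856 metastatic spots more than 200 µm from the core. The next in the control section were Inmt (0.63), Sftpc (0.60), Lyz2, Mgp, H2-D1, Psap, Sparc, Tmsb4x and Lyz1. In the metastatic section they were Apoe (0.64), Lyz2 (0.60), Psap, Fau, H2-K1, S100a6, Tmsb4x, Rpl13 and H2-D1. The lists shared 5 genes: Cst3, H2-D1, Lyz2, Psap and Tmsb4x. The median r over all candidates was 0.10 and 0.11.

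H2-Aa and H2-Ab1 gave r of 0.48 over control spots and 0.66 over metastatic spots, and Cd74 gave 0.57 and 0.71 with H2-Aa. Ciita gave 0.11 and 0.27 with Cd74. In sparse counts such as those of Ciita a weak correlation is no finding.

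Other genes of the pathway were read from a list of 31 symbols, of which 28 were features and 24 had enough counts. In the margin over the far lung 20 of the 24 had an interval above 1, 4 had one that covered 1 and 0 had one below it, and 9 were at least 2-fold higher, with a median ratio of 1.77. Over all genes tested 6.75% were at least 2-fold higher and the median ratio was 1.21. The highest were Socs1, the feedback inhibitor of cytokine signalling, at 4.53 (3.21 to 6.37), Ctss, the protease that trims the invariant chain, at 3.85 (3.42 to 4.34), and H2-DMb2 at 3.01 (2.21 to 4.08). The lowest were Rfxank, a subunit of the RFX complex that binds class II promoters, at 1.02 (0.588 to 1.66), the NF-Y subunit Nfyb at 1.17 (0.747 to 1.76) and the receptor chain Ifngr1 at 1.18 (1.05 to 1.32).

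H2-Oa and H2-Ob form H2-DO, the brake on H2-DM. They were at 2.48 (1.53 to 3.92) and 1.95 (1.14 to 3.20) in the margin and at 1.40 (0.845 to 2.26) and 1.23 (0.723 to 2.03) in the core. Their counts per count of H2-DMa and H2-DMb1 were 0.166 (0.149 to 0.185) in the control section, 0.125 (0.104 to 0.151) in the far lung, 0.0918 (0.0634 to 0.129) in the intermediate zone, 0.136 (0.0990 to 0.183) in the margin and 0.0799 (0.0581 to 0.108) in the core. H2-DO is largely a B cell product, and the B cell list was 1.14 in the control section, 0.603 in the far lung, 1.42 in the margin and 1.24 in the core. Ctss was higher still in the core, at 5.98 (5.44 to 6.58), as was Ifi30, the lysosomal thiol reductase, at 3.89 (3.53 to 4.29). Rfx5, the DNA-binding subunit of RFX, was at 1.46 (0.883 to 2.34) in the margin and 2.22 (1.55 to 3.14) in the core. Ifng itself had 6 counts in the margin and 3 in the far lung, and H2-Ea was not analysed here.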

How the data were processed

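The authors deposited raw counts (unique molecules) for each gene in each tissue-covered spot. Per the submitters' processing notes they came from Space Ranger 1.3.1 on mm10. Tissue was permeabilized for 18 minutes. Levels were summed counts per 10000 summed counts over a group of spots. Intervals were exact 95% Poisson intervals for levels and exact binomial intervals of the split of counts for ratios. Neighbouring spots are not independent, so these cover counting error only. A median spot gives a gene at 1 count per 10000 about 1 count, so genes were read from sums over spots.

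The core was a k-means cluster, of 5 formed on 20 principal components of log1p values. It used the 2000 most variable genes, with class II pathway genes left out, and seed 20. Distances were measured on the array at 100 µm between centres. List genes needed at least 100 counts in both sections together. Comparisons over all genes used those with at least 50 counts and added 0.5 to each count. The interval code was run on simulated pooled Poisson counts, the error that the intervals assume, so their coverage followed from the setting. For the margin over the far lung, with genes drawn from 11086, 97% of 100 intervals held a simulated 2-fold change. For a 4-fold change 96% of 100 did. Spread between spots was not simulated. The 7 genes are all named; pathway genes were named by the 3 highest and 3 lowest margin ratios plus H2-Oa, H2-Ob, H2-Ea, Ifng, Rfx5 and Ctss, and other genes by correlation rank. Genes of marker lists named beside a list were chosen after their values were seen. The members and all lists were chosen with earlier results of these data known. Alternatives covered library size, depth, Cd74, the core rule, the B-rich limit, list scoring, cardiac spots, each metastasis and the median spot. Software was scikit-learn 1.9.0 for clustering, scipy 1.17.1 for intervals, numpy 2.4.6 and pandas 2.3.3 for sums, and matplotlib 3.10.9 for plots, under Python 3.11.15.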

Additional observations from a re-analysis of the deposited data

How the results depend on the processing

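No paired analysis was possible because each condition had 1 section and no result came from a test, and leaving out a replicate was not possible for the same reason. Alternative ratios were compared with the counting interval of the reported value, which is narrow. Numbers of genes at 2-fold were compared with a fixed band around the reported number. By these limits 67 of 129 alternative values moved, 5 turned direction and 57 did neither. A turn was counted only where the reported interval left out 1, so the B-rich ratio of the far lung, 0.975 (0.822 to 1.15), could not count as turned. For single genes by position 35 of 63 moved and 28 did not. A core of spots above the highest control spot for the tumour list held 0 spots and was not run. Thinning left out 362 control and 82 metastatic spots.

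With the library size without 455 abundant genes, the ratio was 1.83 for the margin over far lung, 1.59 for the core, 4.19 for the edge of the smaller metastasis and 1.08 for far lung over control, which turned direction. It was 1.03 for B-rich spots of the control section. In control and far lung it was 1.12 and 1.03 for AT2 content, 1.17 and 1.32 for macrophages, 1.12 and 1.16 for dendritic cells and 1.12 and 1.49 for C1q macrophages, and alveolar macrophages turned to 0.977 in the far lung. Genes at least 2-fold higher numbered 393 in the margin, 2 of them class II genes, and 1205 in the core, 1 of them a class II gene, in place of 748 and 2616.

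Thinned to 5000 counts, which left 10 of the 18 smaller edge spots, the margin ratio was 2.27, the core ratio 2.47, core edge over inside 2.10 and the smaller edge 5.10. B-rich spots of the control section gave 1.08, AT2 content 1.46 and 1.27, dendritic cells 1.04 and 1.13, C1q macrophages 1.36 and alveolar macrophages 1.05 in the control section, and 1610 genes were at least 2-fold higher in the core. Without Cd74 the values were 2.13 for the margin, 2.16 for the core, 5.09 for the smaller edge, 1.22 for B-rich spots, 1.54 and 1.28 for AT2 content, and 1.12 for far lung over control, which turned direction.

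By the median spot the margin ratio was 2.52, the core ratio 3.0, the smaller edge 6.36 and far lung over control 0.906. B-rich spots gave 1.24 and 1.18, AT2 content 1.89 and 1.25, macrophages 1.19 and 1.38, C1q macrophages 1.49 in the far lung, alveolar macrophages 1.04 in the control section and dendritic cells 1.13 in the far lung, while dendritic cells turned to 0.951 in the control section.

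With the core from 8 clusters the margin ratio was 2.97, with 1412 genes at 2-fold, the core ratio 1.85, with 1 class II gene at 2-fold beside 2564 genes in all, and edge over inside 2.20. The larger metastasis alone gave 2.56 for the margin and 2.02 for the core, and the smaller 2.06 and 5.70. B-rich limits at the percentiles 90 and 98 gave 1.23 and 1.37 in the control section, and 1.15 (1.07 to 1.23) and 1.17 (0.864 to 1.56) in the far lung, on 31 and 3 spots. Plain summed lists gave 1.18 for B-rich spots and 1.99 for AT2 content in the control section, 1.83 for macrophages in the far lung, and 1.3 and 1.38 for dendritic cells. Without cardiac spots the control section gave 1.24 for macrophages and 1.08 for alveolar macrophages. The last alternatives were chosen after seeing the data. With T cell and neutrophil lists low too, AT2 content gave 2.40 in the control section and turned to 0.898 in the far lung. Leaving out spots under 1000 counts moved no ratio by position beyond its interval. The causes were not tested.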
